A study of Mus musculus with 21 samples.

Results

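Kit, Sohlh1, Sohlh2, Dmrt1 and Dmrtb1 are 5 genes that regulate differentiating spermatogonia. They were chosen by gene symbol, with earlier results of these data known, and each had 1 row in an RNA-seq table of 37620 genes. The RNA came from enriched germ cells of C57BL/6J (B6) mouse testes at 12 days post-partum (dpp), collected after collagenase and trypsin digestion, with no treatment. Each of the 4 sample numbers in the labels (186wt, 343wt, 444wt, 456wt) had 3 libraries, 12 in all, so the sample number was the only factor that could be compared. The labels do not say whether a number stands for 1 mouse or several. The study describes RNA from 4 replicates of germ cells, as many as the sample numbers, so libraries of a number probably share one RNA. The p-values thus measure the spread between these libraries, which is then technical. They compare these 4 samples with each other and not animals in general.

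Spermatogonia are the mitotic germ cells of the testis. As they leave the undifferentiated pool they begin to carry KIT, a receptor tyrosine kinase whose ligand, KITL, is made by the Sertoli cells around them. SOHLH1 and SOHLH2 are basic helix-loop-helix transcription factors of germ cells that bind DNA at E-boxes and are needed for this differentiation. DMRT1 and DMRTB1 (also called DMRT6) share the DM domain, a zinc finger that binds DNA, and act on the passage from mitosis to meiosis. DMRT1 is also made by Sertoli cells, and KIT is also carried by Leydig cells and mast cells.

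The labels call the cells spermatocytes. All 12 genes of a list of early meiosis were measured, among them Sycp3, a part of the synaptonemal complex, at 73.1 ± 18.1 FPKM (fragments scaled to transcript length and to library depth; SD, n = 4 sample numbers). Markers of Sertoli cells were present as well, and Clu, a secreted protein abundant in those cells, reached 1844 ± 574 FPKM. Germ cells and somatic cells were therefore measured together, and in such bulk RNA fewer cells of a type and less RNA per cell cannot be told apart. The depth, estimated from the steps between low FPKM values, ran from 13000000 to 18200000 fragments per library. Each member was read from an estimated 580 fragments or more in every library (580 for Sohlh1 in its lowest library, 5792 for Dmrt1 in its highest), which gives a counting error of 1.31 to 4.15%.

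The members lie on 5 chromosomes of NCBI build 37, in the GENCODE M1 annotation, and no other annotated gene overlaps any of them. Kit (ENSMUSG00000005672) spans chr5:75970941-76052747 on the plus strand. Sohlh1 (ENSMUSG00000059625) spans chr2:25698515-25702768 on the minus strand, and Sohlh2 (ENSMUSG00000027794) spans chr3:54985950-55013879 on the plus strand. Dmrt1 (ENSMUSG00000024837) spans chr19:25580108-25678819 on the plus strand, and Dmrtb1 (ENSMUSG00000028610) spans chr4:107348895-107356835 on the minus strand. An FPKM value here is for the whole gene, and the annotation gives Kit 2, Dmrt1 3 and Dmrtb1 2 coding transcripts against 1 for each Sohlh gene.

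The sequence before the start of a gene is shown because SOHLH1 and SOHLH2 bind E-boxes (CANNTG). RefSeq start sites were found for 4 of the 5 members, in 6 windows of 250 bases. The letters are RefSeq's (GRCm38.p6), placed on NCBI build 37 by exact match, and each is written 5′ to 3′ on the gene's strand with the E-boxes in capitals. Bases that lie within an annotated transcript are left out, so some windows are shorter in print.
Sohlh1 (chr2:25702769-25703018, minus strand): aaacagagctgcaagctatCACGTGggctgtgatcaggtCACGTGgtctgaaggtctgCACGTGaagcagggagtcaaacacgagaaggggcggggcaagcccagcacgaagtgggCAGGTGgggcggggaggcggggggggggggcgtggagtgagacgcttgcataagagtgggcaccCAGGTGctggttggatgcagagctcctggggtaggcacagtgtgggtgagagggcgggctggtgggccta
Sohlh2 (chr3:54985716-54985949, plus strand): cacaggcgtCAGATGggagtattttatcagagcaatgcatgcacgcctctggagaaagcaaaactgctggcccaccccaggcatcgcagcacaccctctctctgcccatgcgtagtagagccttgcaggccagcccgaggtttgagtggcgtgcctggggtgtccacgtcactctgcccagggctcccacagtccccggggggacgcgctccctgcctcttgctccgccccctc
Dmrtb1 (chr4:107356836-107357085, minus strand): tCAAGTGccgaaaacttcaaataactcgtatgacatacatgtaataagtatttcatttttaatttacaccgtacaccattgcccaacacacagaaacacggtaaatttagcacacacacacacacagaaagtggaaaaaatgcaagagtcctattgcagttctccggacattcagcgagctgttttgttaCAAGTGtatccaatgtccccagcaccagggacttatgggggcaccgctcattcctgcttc
Kit (chr5:75970762-75970940, plus strand): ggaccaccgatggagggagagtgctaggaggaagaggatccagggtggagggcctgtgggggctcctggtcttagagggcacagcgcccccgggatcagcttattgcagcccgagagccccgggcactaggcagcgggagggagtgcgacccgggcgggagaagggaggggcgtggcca

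The Sohlh1 window held the most E-boxes of the member windows. It had 5 matches of CANNTG, and 3 of them read CACGTG, at 231, 211 and 192 bases before the start. At least 5 CANNTG matches were found in 1.15% of all 32851 promoter windows of the same length, and at least 3 CACGTG matches in 0.0609%, or 20 windows. The Sohlh2 window held 1 CANNTG match, at 241 bases before the start. The Dmrtb1 window printed here held 2, at 249 and 60 bases, and the window of the other Dmrtb1 start held 3. The 2 Kit windows, which overlap almost entirely, held none, against 66.2% of all windows with at least 1. These letters mark no site of binding.

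A nuclear receptor half-site, AGGTCA on either strand, was found once in the Sohlh1 window, at 215 bases before the start, where it overlaps the CACGTG at 211 bases, and in 14.0% of all windows. ACANTGT is a loosened form of the core bound by DM domain proteins, with any base at its centre. It was found once in the Sohlh1 window, at 34 bases, and in 6.47% of all windows. The letters there read ACAGTGT, and the stricter core was not counted. The other member windows held neither AGGTCA nor ACANTGT.

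All 5 members belonged to the more highly expressed genes of these samples. Over the 4 sample numbers (mean ± SD, n = 4), Dmrt1 reached 143.7 ± 17.5 FPKM, Sohlh1 49.6 ± 12.6, Dmrtb1 46.7 ± 9.86, Kit 45.2 ± 9.38 and Sohlh2 25.04 ± 5.35 FPKM. The 20795 genes that averaged 0.1 FPKM or more had a median of 5.005 FPKM and a top quartile that began at 21.1 FPKM, so each member lay in that quartile. Dmrt1 ranked 386 among 22337 protein-coding genes, and Sohlh2, the lowest of the members, ranked 4342.

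FPKM is set per transcript length, so the levels of different genes can be ordered. Dmrt1 was higher than Sohlh1 in 4 of 4 sample numbers, with a ratio of 2.95 (log2 difference 1.56 ± 0.19, SD). Kit was higher than Sohlh2 in 4 of 4, with a ratio of 1.80 (0.85 ± 0.14). Between them, Sohlh1, Dmrtb1 and Kit could not be ordered: Sohlh1 exceeded Dmrtb1 in 2 of 4 sample numbers (0.08 ± 0.21), and Dmrtb1 exceeded Kit in 2 of 4 (0.05 ± 0.15). The exact two-sided sign-flip permutation test gave p = 0.125 for the first 2 of these 4 comparisons (0.25 after Benjamini-Hochberg adjustment over the 4) and p = 0.625 for the others (adjusted p = 0.625). With 4 sample numbers 0.125 is the smallest p it can give, so no order of levels could pass 0.05.

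Each member differed between the sample numbers by more than the spread between libraries of a number. The F-test of limma on log2(FPKM + 0.1), with Benjamini-Hochberg adjustment over 20795 genes, called 5 of 5 members at an adjusted p under 0.05, where it called 58.2% of all genes tested. A separate fit of only the 14348 genes that averaged 1 FPKM or more called 77.6% of them, so a call by itself sets no member apart. The libraries of a number lay close together: on the log2 scale their SD was between 0.02 (Dmrt1) and 0.05 (Sohlh2), and the SD between sample numbers was 5.51 (Sohlh2) to 9.77 (Dmrt1) times as large. The coefficient of variation over sample numbers was 20.8% for Kit, 25.4% for Sohlh1, 21.4% for Sohlh2, 12.2% for Dmrt1 and 21.1% for Dmrtb1, beside a median of 13.5% over genes of at least 1 FPKM. Dmrt1, the most abundant member, thus varied least.

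**Figure D1:**
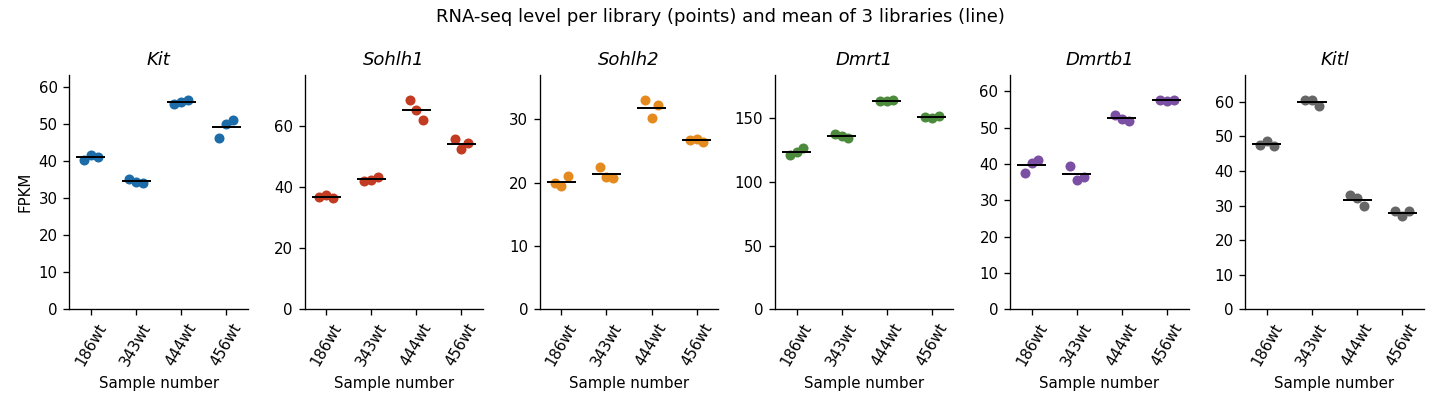
FPKM (linear axis from 0, a scale of its own for each gene) of the 5 members and of Kitl in each of the 12 libraries (points, libraries 1 to 3 from left to right) with the mean of the 3 libraries of a sample number (line). The members' points for 444wt and 456wt lie above those for 186wt and 343wt, and Kitl shows the opposite order.

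Kit, the receptor, was highest in 444wt and lowest in 343wt. Its libraries read 40.4, 41.5 and 41.2 FPKM in 186wt, 35.2, 34.3 and 34.0 in 343wt, 55.5, 56.0 and 56.5 in 444wt, and 46.3, 49.97 and 51.2 in 456wt. The 4 sample numbers did not overlap in any library. The highest mean was 1.62 times the lowest (log2 range 0.70, adjusted p = 5.17e-08), and every pair of sample numbers passed the test. The closest pair was 456wt and 444wt, with Kit lower in 456wt by a log2 difference of -0.19 ± 0.03 (SE, adjusted p = 0.00154).

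Kitl, the gene of the KIT ligand, moved in the opposite direction between the high and the low samples. Its means were 47.8 FPKM in 186wt, 59.9 in 343wt, 31.6 in 444wt and 28.0 in 456wt (log2 range 1.09, adjusted p = 1.69e-09). The ratio of Kit to Kitl FPKM was 0.859 in 186wt and 0.577 in 343wt, and it was 1.77 in 444wt and 1.76 in 456wt. No library of the first pair exceeded 0.874 and no library of the second pair fell under 1.62. The ligand was thus the more abundant transcript per length in 186wt and 343wt, and the receptor in 444wt and 456wt.

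Sohlh1 was lowest in 186wt and highest in 444wt. Its libraries read 36.7, 37.2 and 36.4 FPKM in 186wt, 42.0, 42.2 and 43.2 in 343wt, 68.4, 65.2 and 62.0 in 444wt, and 55.6, 52.3 and 54.5 in 456wt, with no overlap between sample numbers. It had the widest range of the members, 1.77-fold between the means (log2 range 0.82, adjusted p = 1.49e-08). All 6 pairs passed the test, and the smallest difference, 343wt against 186wt, was 0.21 ± 0.04 (SE, adjusted p = 0.00158).

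The means of Sohlh2 followed the same order of sample numbers. Its libraries read 19.9, 19.5 and 21.1 FPKM in 186wt, 22.6, 21.0 and 20.8 in 343wt, 33.1, 30.2 and 32.3 in 444wt, and 26.7, 26.9 and 26.4 in 456wt. The 186wt and 343wt libraries overlapped, and the other 2 sample numbers lay above both and apart from each other. The highest mean was 1.58 times the lowest (log2 range 0.66, adjusted p = 5.32e-07). The difference between 343wt and 186wt, 0.09 ± 0.04 (SE), did not pass the test (adjusted p = 0.193), and the 5 other pairs did.

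Sohlh1 and Sohlh2 kept a nearly constant ratio. It was 1.82 in 186wt, 1.98 in 343wt, 2.05 in 444wt and 2.03 in 456wt, with a mean of 1.97 ± 0.101 (SD, n = 4). Likeness to each member was measured over the 12 libraries as the root mean square difference between log2 profiles, each centred on its own mean, among genes of at least 1 FPKM. By this measure Sohlh2 was 34th of 14347 genes nearest to Sohlh1 (0.09), and Sohlh1 was 139th nearest to Sohlh2. Every other pair of members ranked 600th or farther from either side. These ranks rest on 4 samples and are a description.

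Dmrt1 rose from 186wt through 343wt and 456wt to 444wt. Its libraries read 121.2, 123.6 and 126.4 FPKM in 186wt, 137.7, 136.2 and 134.4 in 343wt, 163.4, 163.9 and 164.5 in 444wt, and 150.9, 150.7 and 151.8 in 456wt. No sample numbers overlapped, although the highest mean was only 1.33 times the lowest (log2 range 0.41, adjusted p = 1.65e-08). All 6 pairs passed the test. The smallest difference lay between 456wt and 444wt, at -0.12 ± 0.02 (SE, adjusted p = 0.000383).

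Dmrtb1 was the only member with its highest mean in 456wt. Its libraries read 37.6, 40.2 and 41.1 FPKM in 186wt, 39.3, 35.7 and 36.5 in 343wt, 53.5, 52.5 and 51.8 in 444wt, and 57.6, 57.4 and 57.5 in 456wt. The 186wt and 343wt libraries overlapped, and both higher sample numbers stood apart from them and from each other. The highest mean was 1.55 times the lowest (log2 range 0.63, adjusted p = 1.81e-07). The difference of 456wt over 444wt, 0.13 ± 0.04 (SE, adjusted p = 0.0313), was the least stable call of any member: it was lost when any of 5 single libraries was left out (444wt library 2 or 3, or any library of 456wt), with adjusted p from 0.0705 to 0.0945. Dmrtb1 in 343wt against 186wt (-0.09 ± 0.04, adjusted p = 0.135) did not pass, but it did without 186wt library 1 or 343wt library 1, with adjusted p of 0.0418 and 0.0313.

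The 2 DM domain genes did not keep a constant ratio. Dmrt1 exceeded Dmrtb1 3.12 times in 186wt, 3.66 times in 343wt, 3.12 times in 444wt and 2.63 times in 456wt. The libraries of 456wt (2.62 to 2.64) lay under those of every other sample number.

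Taken by pairs, 28 of the 30 comparisons of a member between sample numbers passed the test. The shares given beside each pair are over all 20795 genes tested, down to 0.1 FPKM. Shares by pair among genes at the members' level were not computed. In 444wt against 186wt all 5 members were higher, where 26.1% of all genes were called higher, and in 444wt against 343wt all 5 were higher, where the share was 30.4%. The same held for 456wt against 186wt (25.9% of all genes called higher) and for 456wt against 343wt (27.6%). No member was lower in these pairs, where 16.3, 17.5, 15.5 and 14.2% of all genes were called lower, in the same order. These 4 comparisons share their samples and are not independent of each other. The median difference of the members in them was 0.45, 0.57, 0.40 and 0.35 on the log2 scale, beside 0.10, 0.14, 0.08 and 0.11 for all genes tested.

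The remaining pairs split the members. In 343wt against 186wt, Sohlh1 and Dmrt1 were higher (9.93% of all genes were called higher) and Kit was lower (10.5% called lower). In 456wt against 444wt, Dmrtb1 was higher (15.1% called higher) and Kit, Sohlh1, Sohlh2 and Dmrt1 were lower (13.1% called lower). No member changed direction in any pair when the values were rescaled between libraries or when a library was left out.

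**Figure D2:**
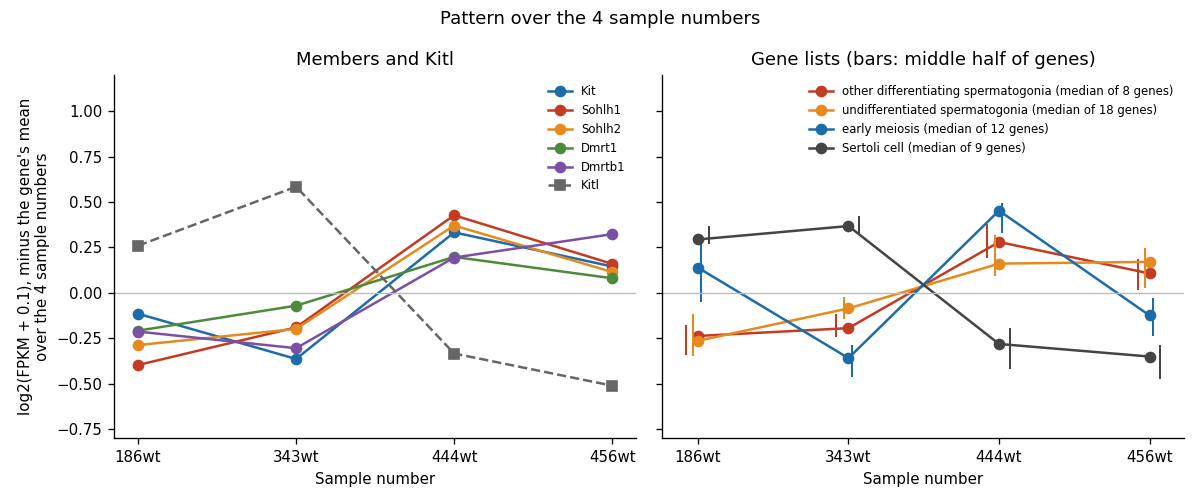
Log2(FPKM + 0.1) of each gene minus its mean over the 4 sample numbers, for the members and Kitl (left) and as the median of the genes of 4 lists (right, with bars from the first to the third quartile of the genes). The members and both spermatogonial lists are above 0 in 444wt and 456wt, the early meiosis list is above 0 in 186wt and 444wt, and the Sertoli cell list is above 0 in 186wt and 343wt.

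The other genes of differentiating spermatogonia were mostly higher in the same samples as the members. All 8 on the list passed the F-test, which called 58.2% of all genes tested and 77.6% in the fit at 1 FPKM or more. Passing it therefore sets neither this list nor those below apart by itself. In 444wt and in 456wt against 186wt 8 of 8 were higher, with median log2 differences of 0.53 and 0.33. In 444wt against 343wt 6 were higher and none was lower (median 0.50), and in 456wt against 343wt 6 were higher and 1 was lower (median 0.31). The lower one was Ccnd2, a cyclin named here after its values were seen, at 31.3 FPKM in 343wt and 28.9 in 456wt. Stra8, the retinoic acid target needed to enter meiosis, was at 77.8, 89.1, 144.6 and 99.1 FPKM in 186wt, 343wt, 444wt and 456wt. Crabp1, a retinoic acid binding protein, was at 79.4, 82.6, 130.0 and 117.6 FPKM in that order. Uchl1, a ubiquitin hydrolase abundant in spermatogonia, was at 324.6, 329.4, 435.8 and 393.3 FPKM, and Dnmt3a, a DNA methyltransferase, at 40.4, 45.7, 48.6 and 45.8 FPKM. Each of these 4 genes was highest in 444wt and lowest in 186wt, as Sohlh1, Sohlh2 and Dmrt1 were. The summed level of the 8 genes was 610, 641, 882 and 768 FPKM, and Uchl1 was the largest part of it in each sample number.

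Genes of undifferentiated spermatogonia were more often higher than lower in these pairs, with 16 of 18 passing the F-test. In 444wt and in 456wt against 186wt 13 were higher and 1 was lower, with median log2 differences of 0.42 and 0.43. In 444wt against 343wt 11 were higher and 3 were lower (median 0.28), and in 456wt against 343wt 10 were higher and 2 were lower (median 0.24). No member was lower in any of these 4 pairs. Lin28a, an RNA-binding protein of the pool, was at 28.5, 35.0, 49.6 and 46.2 FPKM in 186wt, 343wt, 444wt and 456wt. Sall4 was at 19.8, 24.6, 36.1 and 31.6 FPKM, Zbtb16 at 22.8, 26.1, 32.9 and 30.1 FPKM and Sox3 at 23, 23.6, 34.7 and 31.7 FPKM, all 3 of them transcription factors. Utf1 and Cdh1 had the widest ranges among the called genes, and neither kept this order: Utf1 was highest in 343wt (8.43 FPKM) and lowest in 456wt (3.04), and Cdh1 was highest in 456wt (3.72) and lowest in 343wt (1.70).

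Genes of early meiosis went with the members in some pairs and against them in others. All 12 passed the F-test, and the summed level was 399.6 FPKM in 186wt, 298.6 in 343wt, 507.4 in 444wt and 340.5 in 456wt. In 3 of the 4 pairs in which the 5 members were all higher, most of these genes were higher too: 12 of 12 in 444wt against 343wt (median log2 difference 0.79), 8 with 1 lower in 444wt against 186wt (0.34), and 8 with none lower in 456wt against 343wt (0.20; 6 with 1 lower when rescaled to the upper quartile). In the remaining one, 456wt against 186wt, 10 of the 12 meiosis genes were lower and 2 were higher. In 343wt against 186wt 12 of 12 were lower, where 2 members were higher and 1 was lower. Sycp3 was at 70.8, 57.9, 99.0 and 64.7 FPKM in 186wt, 343wt, 444wt and 456wt, and Smc1b, a meiotic cohesin, at 43.0, 39.4, 68.7 and 38.9 FPKM. Sycp1 and Hormad1, genes of the meiotic chromosome axis and synapsis, were also highest in 444wt and lowest in 343wt. Gm4969 and Spo11, the gene of the enzyme that cuts DNA to start recombination, had wide ranges, from 26.5 (343wt) to 54.8 FPKM (444wt) and from 2.82 (343wt) to 7.19 FPKM (444wt). Both lay higher in 186wt than in 456wt, at 45.4 against 29.0 FPKM and at 6.79 against 5.06 FPKM.

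**Figure D3:**
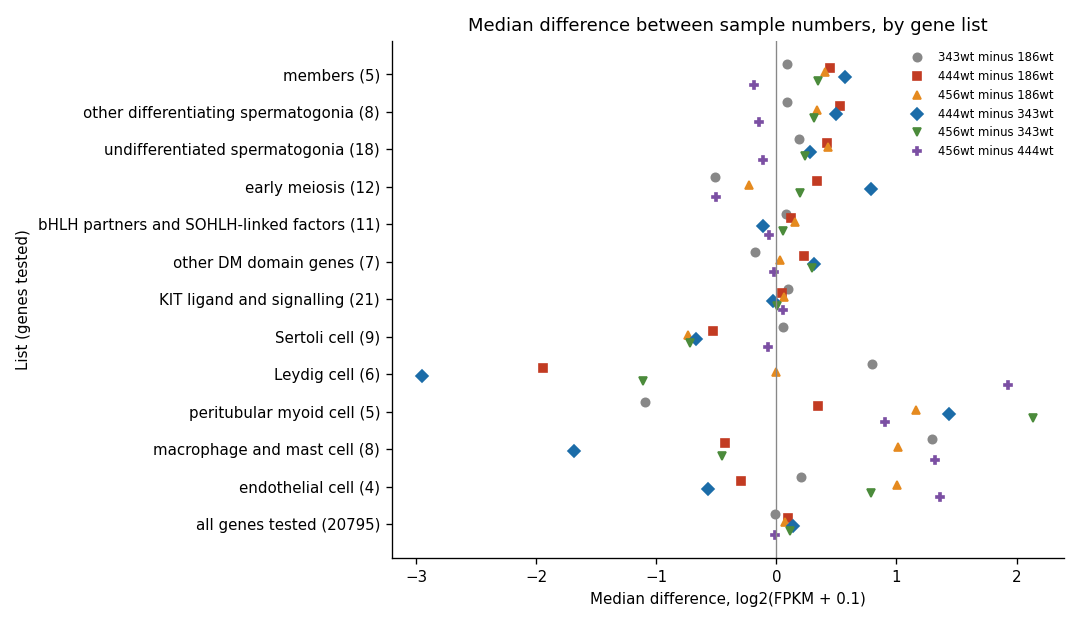
Median difference between sample numbers in log2(FPKM + 0.1) for the members, each gene list and all genes tested, with 1 symbol for each of the 6 pairs and the number of genes tested in brackets. The members lie to the right of 0 in the 4 pairs that set 444wt or 456wt against 186wt or 343wt, and the Sertoli cell list lies to the left of 0 in the same pairs.

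Sertoli cell genes moved against the members. All 9 that were found passed the F-test, and 9 of 9 were lower in 444wt and in 456wt than in 186wt and than in 343wt. The summed level was 3711 FPKM in 186wt, 3909 in 343wt, 2192 in 444wt and 2320 in 456wt. Clu stood at 2289, 2380, 1251 and 1456 FPKM, and Amh, the anti-Müllerian hormone, at 81.4, 94.0, 59.1 and 46.0 FPKM. Kitl, whose protein these cells make, had the same high and low samples. Dmrt1, also a Sertoli cell gene, was highest in 444wt, where the summed level of this list was lowest. Clu was the largest part of that sum. Gene by gene the list was lower in 456wt: its median log2 difference from 186wt was -0.73 there and -0.53 in 444wt. The part of the Sertoli cell share in the members' levels was not tested.

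The Leydig and peritubular myoid lists ran in opposite directions in most pairs. All 6 Leydig cell genes passed the F-test, with a summed level of 56.5, 110.5, 16.1 and 60.9 FPKM in 186wt, 343wt, 444wt and 456wt. Kit, which Leydig cells also carry, was lowest in 343wt and highest in 444wt, where the Leydig list was highest and lowest. The 5 peritubular myoid genes summed to 532.6, 253.3, 669.8 and 1112 FPKM, with Acta2 the largest part in each sample number. This is the order of the Dmrtb1 means, although Dmrtb1 in 343wt against 186wt did not pass the test. In the pairs in which all 5 members were higher, the myoid genes moved with them. In 444wt and in 456wt against 186wt 5 of 5 were higher (median log2 difference 0.35 and 1.16). In 444wt against 343wt 4 were higher (1.44) and in 456wt against 343wt 5 were higher (2.14), with none lower in these pairs. In 456wt against 444wt 5 of 5 were higher (0.91), where only Dmrtb1 of the members was higher. In 343wt against 186wt 4 were lower (-1.09), where Kit was lower and Sohlh1 and Dmrt1 were higher. The 4 endothelial genes summed to 14.3, 19.3, 12.1 and 29.9 FPKM. Of the macrophage and mast cell genes 7 of 8 tested passed, with a sum of 11.1, 21.1, 5.47 and 15.7 FPKM, and the mast cell genes Cpa3, Cma1, Tpsb2 and Mcpt4 had means of 0.0925, 0.168, 0.202 and 0.174 FPKM. Mast cells carry KIT, and none of these 4 genes reached 0.5 FPKM in the mean of any sample number. The part of these cells in the members' levels was not tested.

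Of the KIT ligand and signalling genes, Kitl included, 16 of 21 passed the F-test (76.2%). The share was 58.2% over all genes tested and 77.6% in the fit at 1 FPKM or more. In 343wt against 186wt, where Kit was lower, 6 of these genes were called higher and none lower. There 18 of the 21 had a difference above 0, with a median log2 difference of 0.10. In every other pair some of the list were called higher and some lower. In 444wt against 343wt, the pair in which Kit differed most, 5 were higher and 8 were lower, and the median log2 difference was -0.03. Fyn, a kinase recruited by the receptor, was lowest in 444wt (61.4 FPKM) and highest in 343wt (87.3), and Mapk3 likewise (80.8 and 114.7 FPKM). Akt1, a kinase further along the pathway, varied little, from 73.4 to 82.2 FPKM. Lyn, with the widest range among the called genes beside Kitl, stayed between 0.993 and 2.17 FPKM.

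Of the partners and relatives of the SOHLH proteins, 10 of 11 rows passed the F-test (Lhx8 has a pair of rows with separate identifiers, of which 1 passed). Tcf3 and Tcf12, whose E-proteins pair with helix-loop-helix factors of single tissues, were lowest in 186wt (76.9 and 36.3 FPKM) and highest in 444wt (98.1 and 44.8), like both Sohlh genes. Id2, a helix-loop-helix protein that cannot bind DNA and holds E-proteins back, was highest in 343wt (53.0 FPKM) and lowest in 444wt (32.6). Id3 was also lowest in 444wt (30.1 FPKM) but was highest in 456wt (39.4). Nobox, a homeobox gene known from oocytes, lay between 0.853 and 2.60 FPKM, and the called Lhx8 row between 2.85 and 6.97 FPKM.

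The other DM domain genes split into 2 patterns. Of 7, 6 passed the F-test. Dmrta1 fell from 55.6 FPKM in 186wt and 50.2 in 343wt to 34.0 in 444wt and 32.9 in 456wt, and Dmrtc1a from 53.1 and 49.7 to 24.7 and 35.7 FPKM, against the direction of Dmrt1 and Dmrtb1. Dmrtc1b, a close copy of Dmrtc1a whose reads may be divided between both, was at 3.87, 3.39, 1.09 and 2.61 FPKM. Dmrtc2 was highest in 444wt (10.8 FPKM) and lowest in 343wt (6.89), and Dmrt3 ranged from 2.92 to 3.62 FPKM.

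The genes nearest to each member by the same measure of likeness differed from member to member. For Kit they were Kntc1, Ttc19 and Dock6 (root mean square difference 0.04, 0.05 and 0.05), and for Sohlh1 Mageb4, Pramef12 and Tex19.1 (0.04, 0.05 and 0.06). For Sohlh2 they were Eif5a2, Ddx4 and Cecr2 (each 0.05), of which Ddx4 is the germ cell RNA helicase, at 70.6, 74.5, 106.9 and 95.1 FPKM in 186wt, 343wt, 444wt and 456wt. For Dmrt1 they were Eif3l, 2700060E02Rik and Smarcc1 (0.02, 0.02 and 0.03), and for Dmrtb1 Large, Agap1 and Pold1 (0.05, 0.05 and 0.06). No gene appeared for more than 1 member.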

How the data were processed

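RNA-seq was done on mRNA, drawn from the total RNA of germ cells from B6 testes at 12 dpp. The FPKM values were made by the authors with RSEM 1.2.8 and deposited per library: reads of 100 bp were placed on transcripts of NCBI build 37 by BowTie 0.12.9, and those with 2 or more mismatches were dropped. A strand setting was not given in the sources used here. The 9 other samples of the series were not analysed here.

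The 3 libraries of a sample number were averaged, and each mean ± SD is over 4 sample numbers. Sample numbers were compared by limma 3.58.1 under R 4.3.3 (an F-test after lmFit and eBayes with trend, then each pair of sample numbers in the same fit) on log2(FPKM + 0.1), for genes that averaged 0.1 FPKM or more, with Benjamini-Hochberg adjustment over all genes tested and a threshold of 0.05. A fold change on this scale understates that of low genes. In simulated data of 20795 genes, 1 of 4 sample numbers was shifted in 100 genes by 0.5 and in 100 genes by 1 (log2). There 47% of the shifts of 0.5 and 60% of those of 1 were recovered, and 8 of 115 calls were false. Far fewer genes were shifted than the 58.2% called in the real data, and a Benjamini-Hochberg cut depends on that share. These rates are therefore not those of the calls reported here. The depth was estimated from the steps of FPKM in 282 short, low genes in the first library, and from the ratio of steps in the others, and intervals on it cover counting error only. The remaining steps used Python 3.11.15, pandas 2.3.3, numpy 2.4.6, scipy 1.17.1 and matplotlib 3.10.9.

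The members and the gene lists were chosen with earlier results of these data known. Named in the text are the members, Kitl, in each list the 4 genes with the highest mean and the 2 called genes with the widest range (somatic lists mainly by their sums), the mast cell genes, chosen after their values were seen, and the 3 genes most like each member. A gene that this rule names is not reported here. Rhox5, on the Sertoli cell list, was not found under that symbol. Alternatives were other pseudocounts, filters and scalings, a replicate block, and leaving out each library and each sample number.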

Additional observations from a re-analysis of the deposited data

How the results depend on the processing

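All 5 members passed the F-test under each of the 23 alternatives, and no member changed direction in any pair of sample numbers. Of all genes tested, 43.6% (no filter on low values) to 77.6% (filter at 1 FPKM) passed under these alternatives. The number of pairs of sample numbers called was 28 of 30 under pseudocounts of 1 and 0.01, a filter at 1 FPKM or none, and both scalings. It ran from 13 to 29 over the settings that leave out a library or a sample number, where leaving out a sample number leaves 15 pairs at most (15 without 186wt or 343wt, and 13 without 444wt or 456wt). The members called stayed at 5 in all of these, and the called genes of the lists ran from 90 to 100. The order of levels ran from 1.496 to 1.64 (Dmrt1 over Sohlh1, log2), from -0.00072 to 0.14 (Sohlh1 over Dmrtb1), from -0.012 to 0.0935 (Dmrtb1 over Kit) and from 0.79 to 0.90 (Kit over Sohlh2). The lower ends of the middle 2 are reversals, without 444wt and without 456wt, and the cause was not tested. With values rescaled to the upper quartile, the share of higher among the called genes in 456wt against 343wt was 56.1%, beside 66.1% unscaled. At a filter of 1 FPKM, 4 macrophage and mast cell genes were called.

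No pairing of the samples by library number was seen, though a small shared effect could be missed. Deviations from the sample means correlated between -0.06 and 0.13 for equal library numbers (18 pairs) and between -0.13 and 0.08 for unequal ones (36). With the library number as a replicate block, 5 members and 27 of the 30 pairs were called, and 98 genes of the lists. The lost call was Dmrtb1 in 456wt against 444wt (adjusted p = 0.0551, limma). Since the deposited values hold no counts, the depth is an estimate, and 4 samples limit every comparison of levels.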
